A study of Drosophila melanogaster with 12 samples.

Results

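The genes described here are 8 parts of the sugar-sensing and Dawdle signalling route of the Drosophila melanogaster fat body, a storage organ for fat and glycogen that also secretes hormones. They are Mio, bigmax, sug, cbt, daw, babo, put and Smox, and all 8 were among the 10047 genes of the deposited table. These genes and the lists below were chosen by name, with earlier results of these data known. Their counts beside those of all genes are therefore descriptions. RNA came from fat bodies of female larvae in the wandering stage, with 3 libraries in each of 4 groups. The groups were EcR RNAi on 0.5 M sucrose, control on 0.5 M sucrose, EcR RNAi on 0.15 M sucrose and control on 0.15 M sucrose. Fathers of EcR RNAi larvae were of the UAS-EcR RNAi stock VDRC 37058, and fathers of control larvae of the VDRC 60000 stock, whose libraries are titled w1118. All larvae, controls included, had mothers with UAS-Dcr2 and the fat body driver r4-GAL4. The hairpin comes from 1 stock, and the labels do not say how many larvae or crosses went into a library, so the p-values speak of the spread between samples that may be partly technical replicates. Below, "EcRi" stands for libraries labelled EcR RNAi.

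Animals that eat sugar adjust transcription to it through a pair of basic helix-loop-helix leucine zipper proteins. In the fly these are Mondo, encoded by the gene listed as Mio, and its partner Mlx, encoded by bigmax; their mammalian counterparts are ChREBP or MondoA with MLX. The pair raises genes of glycolysis, of the pentose phosphate pathway and of fatty acid synthesis, and also genes for further regulators. Among these are the zinc finger proteins Sugarbabe (sug) and Cabut (cbt) and the secreted ligand Dawdle (daw). Dawdle belongs to the Activin branch of TGF-beta signalling: it acts through the type I receptor Baboon (babo) and a type II receptor such as Punt (put), and the receptors phosphorylate Smad2, the product of Smox. EcR, the RNAi target, encodes the receptor through which the steroid ecdysone acts.

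Values are a normalised signal per gene and library. Levels of 1 gene were compared between libraries on the assumption that the normalisation, whose method is not given, made them comparable. The signal summed to between 8864826 and 15045575 per library. Fat bodies were cut out, sheared and spun down before extraction. Control 0.5 M replicate 1 had the highest sum and stood farthest from its group mean, so results that rest on it are also given without it. EcR itself had a signal of 1414 ± 328 in EcRi and 1454 ± 64.2 in control libraries on 0.5 M sucrose, and 1132 ± 106 in EcRi and 1380.0 ± 173 in control libraries on 0.15 M (SD, n = 3 each). The log2 differences were -0.06 and -0.28, and neither passed the test (limma, adjusted p = 0.847 and 0.386): no fall of EcR mRNA was detected, and the groups go by their labels. The white gene w was higher in EcRi by 0.77 and 0.75 on 0.5 M and 0.15 M (limma, adjusted p = 0.00797 and 0.0132). Its signal was 1387.5, 780 and 834 in control 0.5 M replicates 1, 2 and 3. Dcr-2, which the UAS-Dcr2 transgene adds to, had 70626 ± 15685 in EcRi and 50256 ± 8776 in control on 0.5 M, and 45250.3 ± 6186 in EcRi and 56285 ± 3829 in control on 0.15 M (SD, n = 3 each). Its diet change of 0.63 in EcRi and its interaction of 0.80 did not pass (limma, adjusted p = 0.0604 and 0.17, unadjusted p = 0.0159 and 0.0266), and their part in the results below was not tested. For the fat body label, 10 of 10 of its marker genes were listed. These 10, among them larval serum protein, collagen and lipophorin genes, summed to between 1925660 and 4207267 of the signal per library. Markers of salivary gland, muscle and the other tissues listed had lower signals. The lowest mean of any gene in the table was 1.67, so an absent marker would not show as 0. The ring gland marker dib was asked for and was not in the table.

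The genotype label went with a large rise of sug and a fall of daw on both diets, with a rise of Mio and cbt on 0.5 M sucrose, and with a rise of Smox on both diets. On 0.5 M sucrose 5 of the 8 genes passed the test between EcRi and control libraries, 4 higher (Mio, sug, cbt and Smox) and 1 lower (daw). Of all genes 19.1% passed in this comparison, 10.9% higher and 8.11% lower. The median log2 difference was 0.42 over the 8 genes and 0.00 over all genes. On 0.15 M sucrose 3 of the 8 genes passed, with sug and Smox higher and daw lower, against 11.2% of all genes, 6.19% higher and 5.01% lower. The median there was -0.11 over the 8 genes and 0.04 over all genes. The EcRi and control libraries did not overlap for 7 of the 8 genes on 0.5 M and for 5 of the 8 on 0.15 M, against 35.6% and 28% of all genes. Calls were made with limma on log2(signal + 1), with 1 fit of the 4 groups, at a Benjamini-Hochberg adjusted p under 0.05 over all genes. In RNA from a whole organ, fewer cells of a type and less RNA per cell cannot be told apart.

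**Figure D1:**
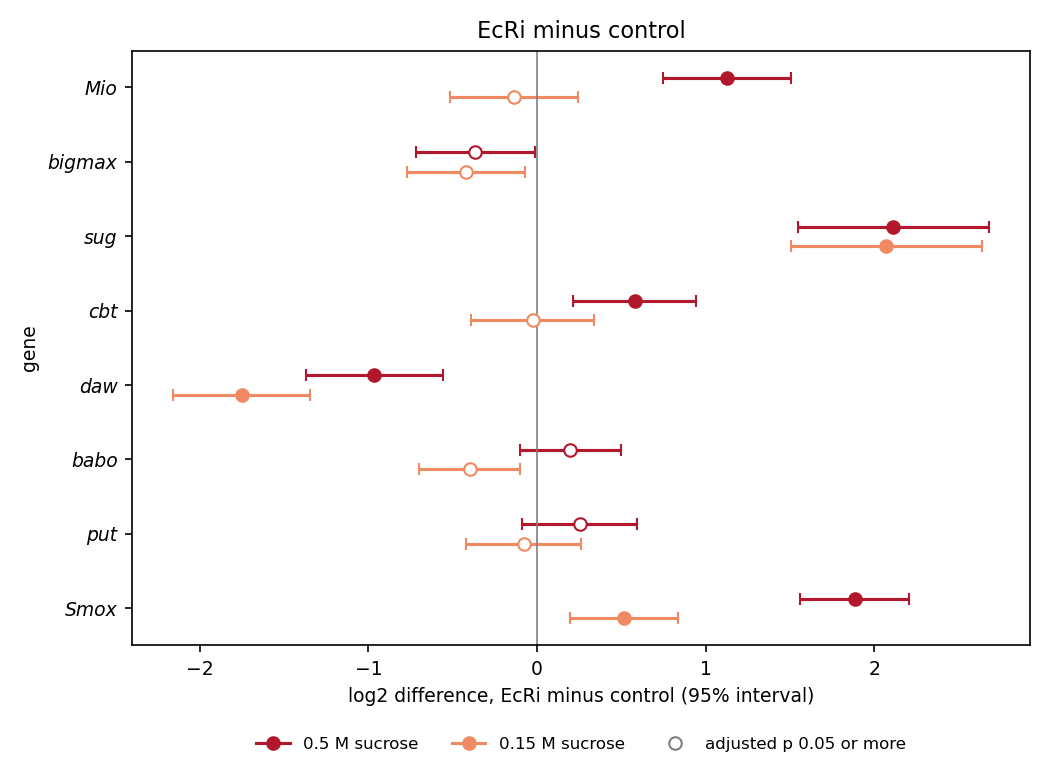
Log2 difference of the normalised signal, EcRi minus control, for each of the 8 genes, with 95% intervals from the limma fit, on 0.5 M sucrose (red) and 0.15 M sucrose (orange). Filled points passed at an adjusted p under 0.05. The sug points lie at 2.11 and 2.07, whereas the Mio points lie at 1.13 on 0.5 M and -0.14 on 0.15 M, and daw lies below 0 on both diets.

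Some markers of other tissues differed between the genotype labels as well. Of all genes 10.9% were higher and 8.11% lower in EcRi on 0.5 M, and 6.19% higher and 5.01% lower on 0.15 M. Of 8 salivary gland genes, 5 were lower in EcRi on 0.5 M sucrose and 8 on 0.15 M. Their summed signal ran from 1942 to 7009 in EcRi and from 7343 to 31398 in control libraries on 0.5 M, and from 1369 to 3874 in EcRi and from 20326 to 23935 in control libraries on 0.15 M. Of 8 hemocyte genes 2 were higher in EcRi on 0.5 M and 1 on 0.15 M, and of 7 nervous system genes 1 was higher on each diet. Of 7 midgut genes 1 was lower on 0.5 M, and 0 of 11 muscle genes passed on either diet in limma, with medians of 0.46 on 0.5 M and -1.08 on 0.15 M. Of 6 ring gland genes asked for 5 were listed. On 0.5 M 1 was higher in EcRi (sad) and 4 were lower (phm, spok, nvd and sro), and on 0.15 M sad was higher. Their sums were 7075 to 8516 in EcRi and 1220.3 to 1673 in control libraries on 0.5 M. On 0.15 M they were 1799 to 2195 in EcRi and 929 to 1276 in control libraries. The higher sum in EcRi on 0.5 M was that of sad alone, which averaged 7287 in EcRi and 252 in control libraries there. Among 10 fat body genes 2 were higher and 2 lower on 0.5 M, and 2 were higher on 0.15 M. In lists this short, 1 or 2 calls in a direction are not read as a difference of a tissue. The part of these markers in the results below was not tested.

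The high-sugar diet went with higher signals of 5 of the 8 genes in EcRi fat bodies and of 1 in control fat bodies. In EcRi libraries Mio, sug, cbt, daw and Smox rose on 0.5 M sucrose relative to 0.15 M and 0 of the 8 genes fell, where 24.4% of all genes passed, 14% higher and 10.4% lower. In control libraries sug rose, where 1.72% of all genes passed, 1.55% higher and 0.169% lower. The median log2 difference over the 8 genes was 0.99 in EcRi and 0.23 in control, and over all genes it was -0.02 and -0.01. The 0.5 M and 0.15 M libraries did not overlap for 7 of the 8 genes in EcRi and for 3 in control, against 44.7% and 18% of all genes. The diet change itself differed between the genotype labels for Mio and Smox, 2 of the 8 genes, where 3.92% of all genes passed this interaction test, 2.59% with a higher and 1.33% with a lower change in EcRi. The 4 comparisons of 2 groups share libraries with each other, and the interaction uses all 12.

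Scaling by the upper quartile moved the median of all genes by -0.20 (log2) in the diet comparison of EcRi libraries. With it 30.1% of the calls in that comparison were higher, against 57.4% without it, but each of the 5 calls among the 8 genes held. For the interaction the same scaling moved the median by -0.12, and 39.9% of calls were higher, with 50.1% after quantile normalisation and 66.0% as deposited; Mio and Smox passed under both. Of all genes 14% rose and 10.4% fell in the EcRi diet comparison. There 8 of 11 muscle marker genes rose, with a summed signal of 39643 to 82198 on 0.5 M and of 9056 to 29149 on 0.15 M. The salivary gland list had 1 of 8 genes higher, the hemocyte list 1 higher and 2 lower of 8, and the ring gland list 1 higher and 3 lower of 5. The midgut and nervous system lists had 1 of 7 genes higher each, and the fat body list 1 of 10 lower. In control libraries 1.55% of all genes rose with the diet. There 1 gene each rose in the fat body list (vkg, at 0.79), the hemocyte list (Pxn, at 0.88) and the nervous system list (nrv2, at 0.71). Of 11 muscle genes 0 passed in limma, with a median of 0.09. For the interaction 3 of 5 ring gland genes passed, sad at 2.42, phm at -2.34 and spok at -4.08, where 3.92% of all genes passed. Of 11 muscle genes 0 passed the interaction in limma, 6 had an unadjusted p under 0.05, and the median was 1.42. The part of these markers in the diet and interaction results was not tested.

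**Figure D2:**
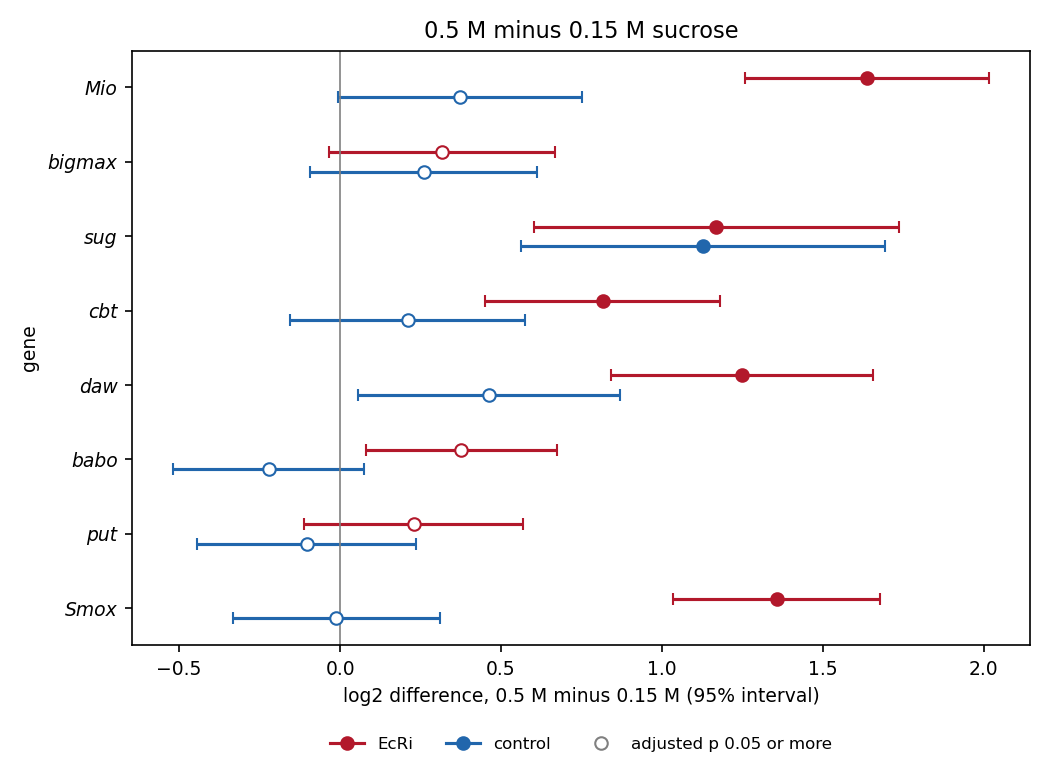
Log2 difference of the normalised signal, 0.5 M minus 0.15 M sucrose, for each of the 8 genes, with 95% intervals from the limma fit, in EcRi (red) and control (blue) libraries. Filled points passed at an adjusted p under 0.05. For Mio and Smox the EcRi points, at 1.64 and 1.36, lie to the right of the control points at 0.37 and -0.01, while the sug points lie at 1.17 and 1.13.

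Mio (FBgn0032940, now named Mondo) encodes the sugar-responsive subunit of the pair. Its signal was 2058, 1580.1 and 1408 in the EcRi 0.5 M libraries, 783, 828 and 676 in the control 0.5 M libraries, 528, 426 and 675 in the EcRi 0.15 M libraries, and 588, 617 and 557 in the control 0.15 M libraries. The 3 EcRi 0.5 M libraries lay above all the others, and the EcRi and control libraries overlapped on 0.15 M. On 0.5 M sucrose Mio was 2.18-fold higher in EcRi than in control (log2 1.13 ± 0.18, SE; limma, adjusted p = 0.000246). On 0.15 M the log2 difference was -0.14, with a 95% interval from -0.52 to 0.24. The diet change was 1.64 ± 0.18 in EcRi (adjusted p = 2.1e-05, limma) and 0.37 ± 0.18 in control, where it did not pass although the 3 libraries on 0.5 M lay above the 3 on 0.15 M (adjusted p = 0.356, limma). The difference between these diet changes was 1.26 ± 0.25 (limma, adjusted p = 0.0122). Without the trended and robust variance step it was of the same size with an adjusted p of 0.0508. In order of mean level, EcRi 0.5 M stood first, then control 0.5 M, control 0.15 M and EcRi 0.15 M, and the difference passed neither between the controls of both diets nor between control and EcRi on 0.15 M.

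bigmax (FBgn0039509), which encodes the DNA-binding partner Mlx, moved less. Its signal was 177, 160.4 and 171 in the EcRi 0.5 M libraries, 281, 193 and 192 in the control 0.5 M libraries, 135, 119 and 156 in the EcRi 0.15 M libraries, and 194, 178 and 175 in the control 0.15 M libraries. All 3 EcRi libraries lay below all 3 controls on each diet, though bigmax passed the test on neither. The log2 differences were -0.37 ± 0.17 on 0.5 M and -0.42 ± 0.17 on 0.15 M (SE; limma, adjusted p = 0.148 and 0.132). Without control 0.5 M replicate 1, which held the highest value, these were -0.18 and -0.42 with adjusted p of 0.44 and 0.0458 (limma). The diet changes were 0.32 in EcRi and 0.26 in control, with intervals from -0.04 to 0.67 and from -0.09 to 0.61, and that in control was 0.079 without control 0.5 M replicate 1. Mio and bigmax, which encode the 2 subunits of a heterodimer, thus differed in the size of the diet change in EcRi, at 3.11-fold for Mio and 1.25-fold for bigmax, a gap that was not tested between genes. In the Ensembl BDGP6 annotation, an exon of CG3368 on the opposite strand overlaps bigmax, and with no strand setting stated, reads of both genes could mix; CG3368 had means between 367 and 409 in the 4 groups.

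sug (FBgn0033782) encodes Sugarbabe, a Gli-similar zinc finger factor induced by dietary sugar. Its signal was 1229, 1261 and 1111 in the EcRi 0.5 M libraries, 330, 263 and 243 in the control 0.5 M libraries, 593, 514 and 494 in the EcRi 0.15 M libraries, and 74.1, 199 and 135 in the control 0.15 M libraries. None of the 4 groups overlapped another. sug was 4.33-fold higher in EcRi than in control on 0.5 M and 4.20-fold higher on 0.15 M. These are log2 differences of 2.11 ± 0.26 and 2.07 ± 0.26 (SE; limma, adjusted p = 6.12e-05 and 9.2e-05). For sug the diet change was 1.17 ± 0.26 in EcRi and 1.13 ± 0.26 in control (limma, adjusted p = 0.00667 and 0.0486). The difference between the diet changes was 0.04, with a 95% interval from -0.76 to 0.84 (limma, adjusted p = 0.963).

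The diet call of sug in control libraries sat at the threshold. It was lost in 17 of 22 alternatives, with a log2 difference of 0.74 to 1.46 over all of them. Leaving out 1 library lost it for 11 of 12 libraries, with adjusted p between 0.0623 and 0.231 (limma). The highest was without control 0.5 M replicate 1, where the log2 difference was 0.999. The 1 library whose removal kept the call was control 0.15 M replicate 2, the highest of its group at 199, without which the adjusted p was 0.004 (limma). With the replicate number as a block it was 0.0734 (limma). The other 3 calls of sug in comparisons of 2 groups held in every alternative run. In the Ensembl annotation sug shares 98 bases of exon with CG13319 on the same strand, and reads there could be given to either gene. CG13319 had mean signals of 163 in EcRi 0.5 M, 127 in control 0.5 M, 75.4 in EcRi 0.15 M and 80.8 in control 0.15 M libraries.

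cbt (FBgn0043364) encodes Cabut, a Krüppel-like zinc finger repressor. Its signal was 597, 478 and 447 in the EcRi 0.5 M libraries, 407, 329 and 284 in the control 0.5 M libraries, 268, 247 and 352 in the EcRi 0.15 M libraries, and 286, 315 and 273 in the control 0.15 M libraries. The EcRi 0.5 M libraries were the 3 highest of the 12, and the other 3 groups overlapped each other. On 0.5 M sucrose cbt was 1.49-fold higher in EcRi than in control (log2 0.58 ± 0.17, SE; limma, adjusted p = 0.0254). That call was lost without EcRi 0.5 M replicate 1, control 0.5 M replicate 2 or control 0.5 M replicate 3, with adjusted p of 0.134, 0.0604 and 0.122 (limma). Without control 0.5 M replicate 1 the log2 difference was 0.72 (limma, adjusted p = 0.0074). On 0.15 M the log2 difference was -0.03, with an interval from -0.39 to 0.34. With the diet, the log2 change was 0.82 ± 0.17 in EcRi (adjusted p = 0.00343, limma) and 0.21 ± 0.17 in control (adjusted p = 0.611, limma), or 0.073 in control without control 0.5 M replicate 1. The difference between them, 0.61 ± 0.24, did not pass (limma, adjusted p = 0.161), so the diet changes of cbt are not shown to differ between genotypes.

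**Figure D3:**
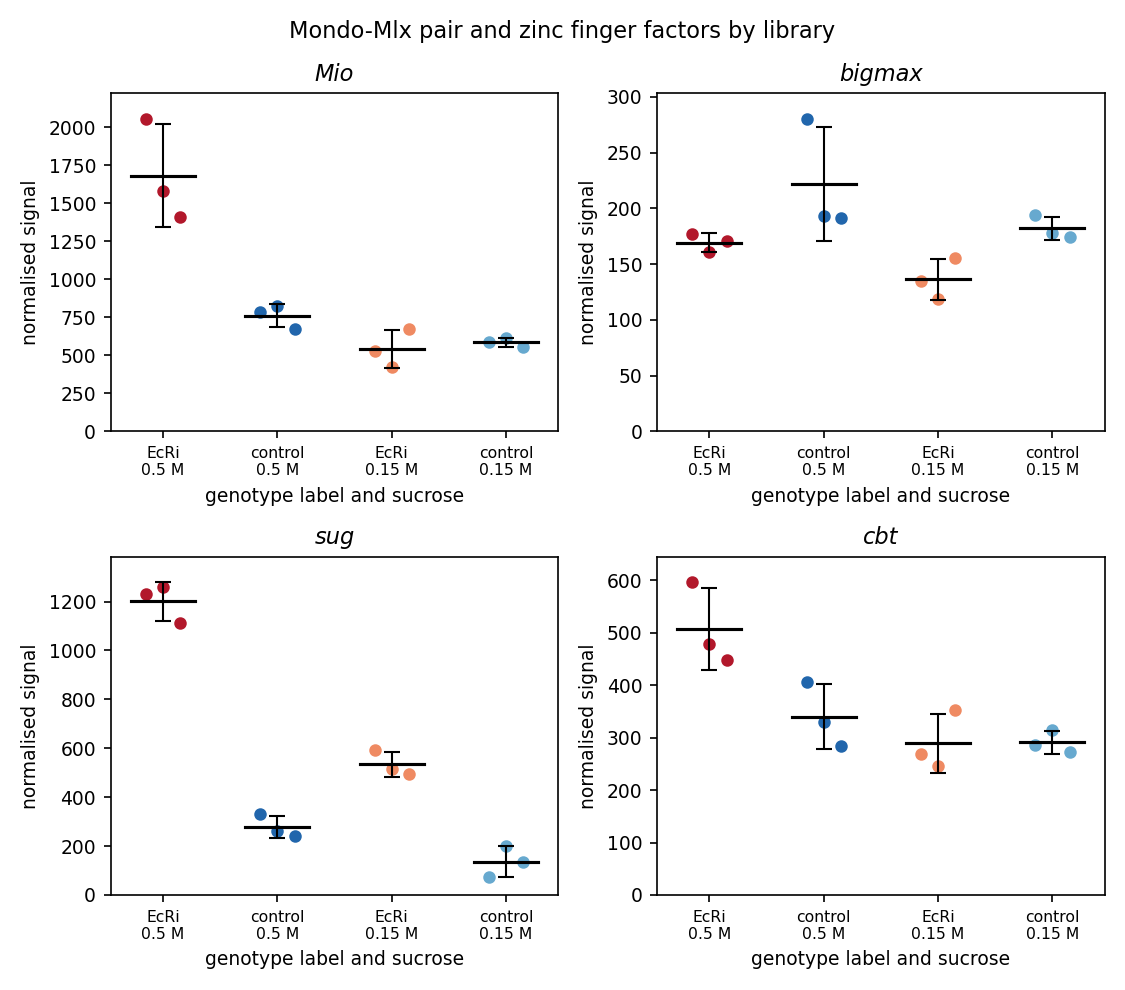
Normalised signal of Mio, bigmax, sug and cbt in each library, with the group mean and SD (n = 3). Each panel runs from EcRi 0.5 M through control 0.5 M and EcRi 0.15 M to control 0.15 M, on a linear axis from 0. The sug groups form 4 separate steps at means of 1200.3, 278, 534 and 136, whereas the EcRi 0.5 M group alone stands apart for Mio and cbt.

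daw (FBgn0031461) encodes Dawdle, the Activin-like ligand. Its signal was 642, 737 and 661 in the EcRi 0.5 M libraries, 1911, 1105 and 1107 in the control 0.5 M libraries, 289, 252 and 318 in the EcRi 0.15 M libraries, and 895, 896 and 1114 in the control 0.15 M libraries. Every EcRi library lay below every control library, whatever the diet, and the EcRi libraries on 0.5 M lay above those on 0.15 M. In EcRi relative to control, daw fell to 0.51 of the control level on 0.5 M and to 0.30 on 0.15 M. The log2 differences were -0.97 ± 0.19 and -1.75 ± 0.19 (SE; limma, adjusted p = 0.0017 and 8.55e-06), and both calls held in every alternative. The diet change was 1.25 ± 0.19 in EcRi (adjusted p = 0.000393, limma) and 0.46 ± 0.19 in control (adjusted p = 0.292, limma). In order of mean level, control 0.5 M stood first and overlapped control 0.15 M, followed by EcRi 0.5 M and EcRi 0.15 M.

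Control 0.5 M replicate 1, at 1911, lay far above the other libraries of its group for daw. Without it the diet change in control was 0.20 (adjusted p = 0.746, limma) and the difference between EcRi and control on 0.5 M was -0.70 (adjusted p = 0.0025, limma). The difference between the diet changes in EcRi and control was 0.79 ± 0.27 with all libraries, which did not pass (limma, adjusted p = 0.11), and 1.05 without this library, which did (adjusted p = 0.00885, limma). bigmax also had its highest value of the 12 libraries here. Across the 12 libraries the log2 signals of daw and bigmax had a Pearson correlation of 0.91, and those of Mio and cbt one of 0.96. The points share libraries and group differences, so these are descriptions.

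babo (FBgn0011300) and put (FBgn0003169) encode the type I receptor Baboon and the type II receptor Punt. The babo signal was 499, 458 and 350.1 in the EcRi 0.5 M libraries, 388, 379 and 360.3 in the control 0.5 M libraries, 316, 341 and 339 in the EcRi 0.15 M libraries, and 452, 424 and 438 in the control 0.15 M libraries. The EcRi and control libraries overlapped on 0.5 M, and on 0.15 M the 3 EcRi libraries were below the 3 controls. babo passed in none of the 5 comparisons. Its log2 difference between EcRi and control was 0.20 ± 0.14 on 0.5 M and -0.40 ± 0.14 on 0.15 M (SE; limma, adjusted p = 0.37 and 0.0844). The diet change was 0.38 in EcRi and -0.22 in control (limma, adjusted p = 0.0614 and 0.492). The difference between the 2 diet changes, 0.60 ± 0.20, had an adjusted p of 0.0964 (limma). Without EcRi 0.5 M replicate 3, the lowest library of its group, the diet change in EcRi was 0.53 and passed, as did the interaction (adjusted p = 0.0171 and 0.0497, limma). Without control 0.5 M replicate 1 the diet change in EcRi also passed (adjusted p = 0.0425, limma).

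The put signal was 330.2, 302 and 281 in the EcRi 0.5 M libraries, 249, 269 and 247 in the control 0.5 M libraries, 206, 271 and 311 in the EcRi 0.15 M libraries, and 291, 301 and 235 in the control 0.15 M libraries. Its 12 values lay within 206 and 330.2, and EcRi and control libraries overlapped on 0.15 M but not on 0.5 M. put passed in none of the 5 comparisons, with log2 differences of 0.25 on 0.5 M and -0.08 on 0.15 M between EcRi and control. Their 95% intervals ran from -0.09 to 0.59 and from -0.42 to 0.26. The diet change was 0.23 in EcRi and -0.10 in control, with intervals from -0.11 to 0.57 and from -0.44 to 0.24. A 2-fold change of put, or 1 on the log2 scale, lay outside each of these intervals.

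Smox (FBgn0025800) encodes Smad2, which carries the Activin-type signal to the nucleus. Its signal was 2540.0, 2230.3 and 2188 in the EcRi 0.5 M libraries, 557, 704 and 627 in the control 0.5 M libraries, 975, 776 and 974 in the EcRi 0.15 M libraries, and 616, 704 and 581 in the control 0.15 M libraries. The EcRi 0.5 M libraries lay above all the others, the EcRi 0.15 M libraries came next, and the controls of both diets overlapped. On 0.5 M sucrose Smox was 3.69-fold higher in EcRi than in control (log2 1.88 ± 0.15, SE; limma, adjusted p = 2.94e-07), the 38th smallest p among all genes. On 0.15 M it was 1.43-fold higher (log2 0.52 ± 0.15; limma, adjusted p = 0.0368). With the diet, Smox changed by 1.36 ± 0.15 in EcRi (adjusted p = 2.52e-05, limma) and -0.01 ± 0.15 in control, with an interval from -0.33 to 0.31. The difference between the diet changes was 1.37 ± 0.21 (limma, adjusted p = 0.00334) and passed in all 21 alternatives. The ligand and the Smad of this branch moved in opposite directions with the genotype label, daw lower and Smox higher on both diets.

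The call of Smox on 0.15 M sucrose was lost in 8 of 22 alternatives. Among fits that left out 1 library, the adjusted p was 0.139 without EcRi 0.15 M replicate 1, 0.121 without EcRi 0.15 M replicate 3, 0.101 with control 0.15 M replicate 1 left out and 0.137 with its replicate 3 left out (limma). Leaving out EcRi 0.5 M replicate 2 gave 0.0534, and leaving out control 0.5 M replicate 3 gave 0.0528. With the replicate number as a block it was 0.0638 (limma).

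**Figure D4:**
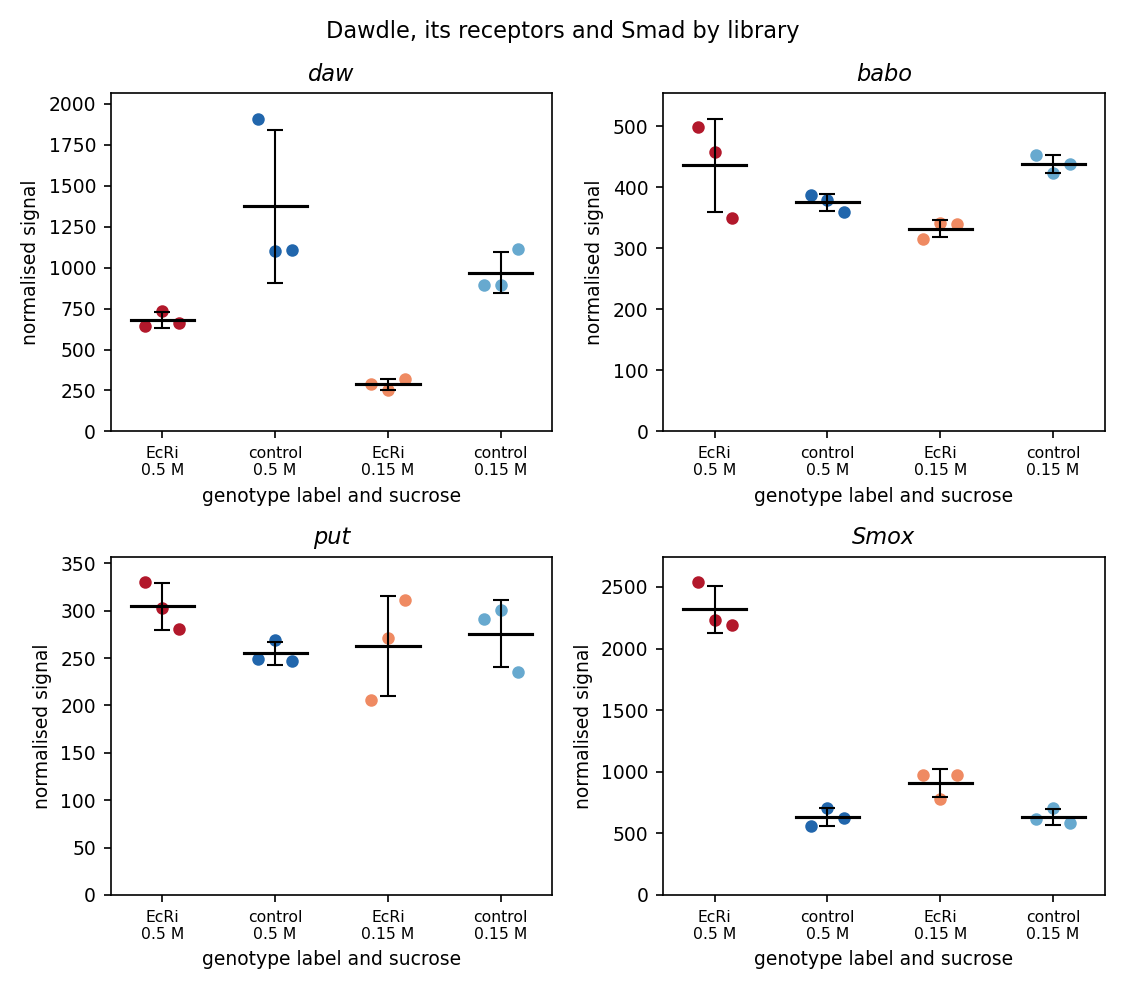
Normalised signal of daw, babo, put and Smox in each library, with the group mean and SD (n = 3), on a linear axis from 0. Groups run from EcRi 0.5 M through control 0.5 M and EcRi 0.15 M to control 0.15 M. The daw means of 680.2 and 287 in EcRi lie below those of 1374 and 968 in control, and the EcRi 0.5 M group of Smox, at 2319.5, stands above the others.

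Levels of different genes were compared per length, as the signal per kb of merged exons in the Ensembl BDGP6 annotation, which may differ from the gene models used by the submitters. Whether the deposited signal was already scaled for length is not known, and the order below rests on this division. Undivided, Smox at 2319.5 and Mio at 1682 stood above sug at 1200.3 in EcRi 0.5 M fat bodies. Averaged over the 12 libraries, sug was highest at 342 per kb, followed by daw at 253, Smox at 248, bigmax at 186, Mio at 173, cbt at 110.1, babo at 77.3 and put at 68.4. The order depended on the group. In EcRi 0.5 M fat bodies sug, at 764 per kb, and Smox, at 513, led, and daw stood at 208. In control 0.5 M fat bodies daw led at 421 per kb, ahead of bigmax at 232 and sug at 177. In control 0.15 M fat bodies daw led at 297 per kb and sug stood at 86.6. The receptor genes babo and put had 63.6 to 85.7 per kb in the 4 groups.

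Among enzyme genes of the routes that Mondo-Mlx is known to raise, most rose with the diet in EcRi, and a minority passed in each of the other comparisons. The list held 27 genes of glycolysis, the pentose phosphate pathway, fatty acid synthesis and related steps, all measured. In EcRi relative to control 11 were higher on 0.5 M, where 10.9% of all genes were higher, and 10 on 0.15 M, where 6.19% of all genes were. The median log2 difference was 0.52 on 0.5 M and 0.38 on 0.15 M. With the diet, 18 of 27 rose in EcRi and 5 in control, where 14% and 1.55% of all genes were higher, and the medians were 0.67 and 0.43. In these 4 comparisons 0 of the 27 fell in limma. All 27 log2 differences were above 0 for the diet in EcRi, and 25 of 27 in control. For the interaction 1 of 27 passed, malic enzyme Men, at 1.11 ± 0.30 (limma, adjusted p = 0.0478). Of all genes 3.92% passed, 2.59% with a higher change in EcRi, so this count was near that share. Over the alternatives it ran from 0 to 8.

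ACC, which makes malonyl-CoA for fatty acid synthesis, had a signal of 19702 ± 1972 in EcRi and 2710.2 ± 512 in control libraries on 0.5 M (SD, n = 3 each). On 0.15 M it had 8787 ± 1701 in EcRi and 1931 ± 473 in control libraries. The hexokinase gene Hex-C stood at 185 ± 54.2 in EcRi and 25.3 ± 3.78 in control on 0.5 M, and at 104 ± 5.90 in EcRi and 25.5 ± 3.88 in control on 0.15 M. Zw, the first enzyme gene of the pentose phosphate pathway, rose with the diet in both genotypes, with 634 ± 135 on 0.5 M and 178 ± 26.4 on 0.15 M in EcRi, and 211 ± 16.5 on 0.5 M and 107 ± 24.7 on 0.15 M in control (limma, adjusted p = 1.42e-05 in EcRi and 0.0121 in control). Gpdh, which makes glycerol-3-phosphate, rose by 1.84 ± 0.23 in EcRi and 1.44 ± 0.23 in control (log2, SE; limma, adjusted p = 8.47e-05 and 0.00346). Men rose with the diet by 1.53 in EcRi, and Pgd and desat1, of the pentose phosphate pathway and of fatty acid desaturation, by 1.11 and 1.28 in control. AcCoAS, acetyl-CoA synthetase, was higher in EcRi by 1.78 on 0.15 M and Men by 2.51 on 0.5 M.

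These counts moved with single libraries and settings. On 0.15 M, 6 enzyme genes were higher in EcRi without EcRi 0.15 M replicate 1 and 6 without EcRi 0.15 M replicate 3. The diet count in EcRi was 11 without EcRi 0.15 M replicate 2. In control the diet count was 2 with either control library of replicate 3 left out, and it was 1 in a fit of only the compared libraries, 1 with plain empirical Bayes and 8 with library weights. The genotype count on 0.5 M was 18 with library weights.

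**Figure D5:**
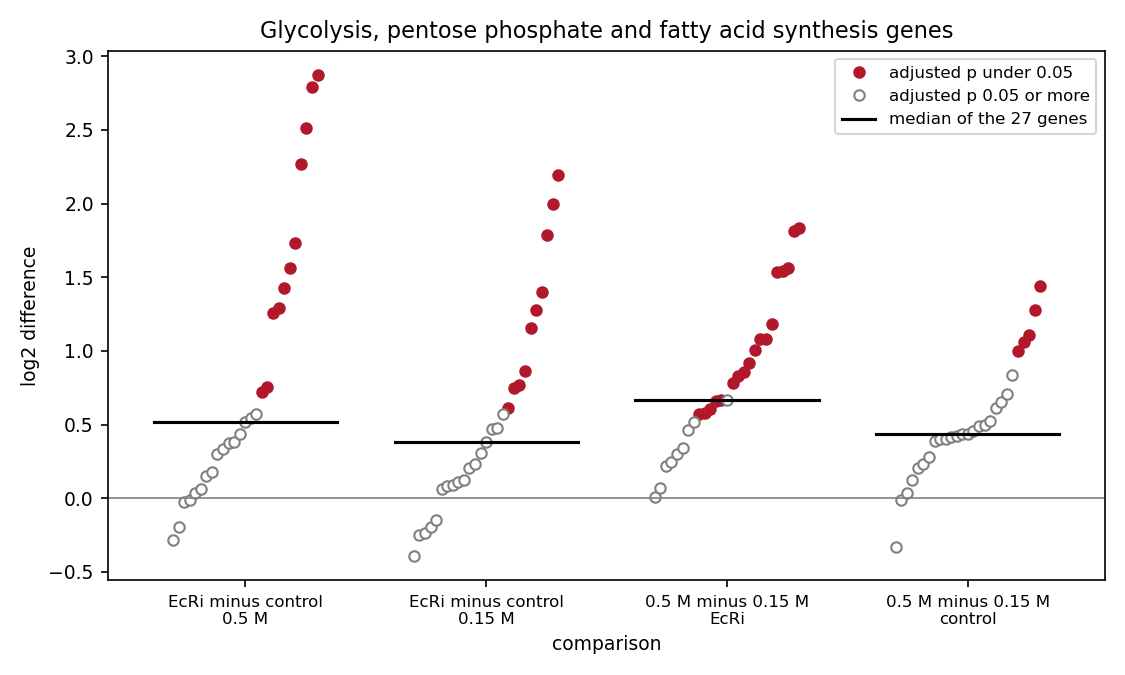
Log2 differences of the 27 enzyme genes in 4 comparisons, sorted within each, with the median as a bar. Filled points passed at an adjusted p under 0.05 (limma, over all genes). The medians lie at 0.52 and 0.38 for EcRi minus control on 0.5 M and 0.15 M, and at 0.67 and 0.43 for 0.5 M minus 0.15 M in EcRi and control, and no filled point lies below 0.

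Digestive enzyme genes are known to be repressed by dietary sugar in the midgut, with Dawdle and Sugarbabe as parts of that control. In these fat body libraries 14 of the 15 genes asked for were listed, and 2 maltase genes, Mal-A5 and Mal-A6, were lower in EcRi on both diets, where 8.11% of all genes were lower on 0.5 M and 5.01% on 0.15 M. Mal-A5 had 1763 ± 384 in EcRi and 10790.0 ± 4925 in control on 0.5 M, and 1821 ± 77.8 in EcRi and 8407 ± 1101 in control on 0.15 M (SD, n = 3 each). The log2 differences were -2.54 ± 0.25 and -2.20 ± 0.25 (limma, adjusted p = 1.97e-06 and 1.22e-05). Mal-A6 differed by -2.44 ± 0.67 and -4.11 ± 0.67 (limma, adjusted p = 0.0336 and 0.00341). On 0.5 M, 1 gene of the list in place of 2 was lower in 7 of 22 alternatives, among them the fits without EcRi 0.5 M replicate 1 or 3, without any 1 of the control 0.5 M libraries and without control 0.15 M replicate 2. Mal-B2, another maltase gene, was higher in EcRi on 0.5 M by 1.19 and rose with the diet in EcRi by 0.76. It was the 1 higher gene of the 14 in each, where 10.9% and 14% of all genes were higher. The count for the diet in EcRi ran from 0 to 3 over the alternatives. It was 0 with upper quartile scaling, without EcRi 0.5 M replicate 3 and without EcRi 0.15 M replicate 2. With the diet in control 0 of 14 passed in limma and 0 had an unadjusted p under 0.05. Neighbouring maltase genes are similar in sequence, so reads could be shared between them.

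Of 20 other TGF-beta genes (ligands, receptors, Smads and extracellular or intracellular modulators), 2 were higher and 1 lower in EcRi on 0.5 M, and 0 were higher and 2 lower on 0.15 M. Of all genes 10.9% were higher and 8.11% lower on 0.5 M, and 6.19% higher and 5.01% lower on 0.15 M, so these counts were near those shares. The higher ones were wit, a type II receptor, at 0.74 ± 0.15, and Mad, the Smad of the BMP branch, at 0.41 ± 0.13 (log2, SE; limma, adjusted p = 0.00201 and 0.038). The lower one was scw, a BMP ligand with a mean signal of 1.23 in EcRi and 5.90 in control. On 0.15 M the lower ones were Sara, a Smad anchor, at -0.51, and lack, which encodes the ubiquitin ligase Smurf, at -0.48. That count of 2 was 0 or 1 in 13 of 22 alternatives, and 0 without EcRi 0.15 M replicate 1 or 2 or any 1 control 0.15 M library. The count of higher genes on 0.5 M was 1 without any 1 EcRi 0.5 M library, control 0.5 M replicate 2 or control 0.5 M replicate 3, and scw was the lower gene lost without EcRi 0.5 M replicate 1, control 0.5 M replicate 1 or control 0.5 M replicate 3. With the diet in EcRi 4 rose and 3 fell of 20, with wit higher by 0.88, lack by 0.71 and Sara by 0.63, and 1 fell without EcRi 0.5 M replicate 1 or 2, where 14% of all genes rose and 10.4% fell. In control 0 of 20 passed in limma, and 3 had an unadjusted p under 0.05. For the interaction 2 of 20 passed, Sara at 0.79 and lack at 0.78 (limma, adjusted p = 0.0398 and 0.043). Of all genes 3.92% passed, 2.59% with a higher change in EcRi, and the count of higher genes in the list ran from 0 to 5 over the alternatives. The difference between wit and put, both type II receptor genes, was not tested.

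Among 10 genes of the Max network and of lipid and energy metabolism, 3 were higher and 1 lower in EcRi on 0.5 M, where 10.9% of all genes were higher and 8.11% lower. The nuclear receptor gene Hnf4 was higher by 0.61 ± 0.15, HLH106, now named SREBP, by 0.49 ± 0.13, and foxo, a forkhead factor of insulin signalling, was lower, at -0.94 ± 0.14 (log2, SE; limma, adjusted p from 0.000142 to 0.0168). foxo was also lower on 0.15 M, at -0.72, the 1 gene of the list called there. With the diet, Hnf4 and dm, the Myc gene, rose in EcRi by 0.56 and 0.55, where 14% of all genes rose, and in control 0 of 10 passed in limma and 0 had an unadjusted p under 0.05. After upper quartile scaling 0 of 10 were higher with the diet in EcRi. Without EcRi 0.5 M replicate 1 that count was 0, and the count on 0.5 M was 1 without that library and 1 without EcRi 0.5 M replicate 2. Of 6 measured relatives of Cabut and Sugarbabe, 0 passed in any of the 5 comparisons in limma, with 0 to 2 at an unadjusted p under 0.05 in each.

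Of 12 measured genes of nutrient signals and their sensors, 6 rose with the diet in EcRi and 1 in control, where 14% and 1.55% of all genes rose, and 0 fell. CCHa2, a fat body peptide hormone gene that responds to sugar, had 2261 ± 271 on 0.5 M and 875 ± 69.1 on 0.15 M in EcRi. In control it had 2041 ± 480 on 0.5 M and 879 ± 142 on 0.15 M (SD, n = 3 each). These were changes of 1.37 ± 0.19 and 1.20 ± 0.19 (limma, adjusted p = 0.000136 and 0.00236). Ilp6, an insulin-like peptide gene, had 1243 ± 205 on 0.5 M and 307 ± 16.0 on 0.15 M in EcRi, and 1454 ± 186 on 0.5 M and 1249 ± 147 on 0.15 M in control. Its diet change was higher in EcRi by 1.79, and that of Thor, a translation repressor gene, by 1.75 (limma, adjusted p = 0.000581 and 0.0121). Thor had 804 ± 171 on 0.5 M and 188.5 ± 35.6 on 0.15 M in EcRi, and 994 ± 309 on 0.5 M and 778 ± 181 on 0.15 M in control. For both genes the EcRi 0.15 M group had the lowest mean of the 4 groups. Between EcRi and control 3 of the 12 were higher and 1 lower on 0.5 M, against 10.9% and 8.11% of all genes. On 0.15 M 1 was higher and 3 lower (Ilp6, Thor and Gbp), against 6.19% and 5.01%. Pepck, the gluconeogenic enzyme gene that Cabut is known to repress, had 74989 ± 6565 in EcRi and 31644 ± 11257 in control on 0.5 M, and 39962 ± 3099 in EcRi and 16022 ± 833 in control on 0.15 M (limma, adjusted p = 0.000747 and 0.000913). The count of higher genes on 0.5 M was 1 without any 1 EcRi 0.5 M library or control 0.5 M replicate 2 or 3, and 5 without control 0.5 M replicate 1. The lower gene there, Gbp, lost its call without any 1 EcRi 0.5 M library or control 0.5 M replicate 1 or 2.

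The genes whose pattern over the 12 libraries was most like that of a member were found by Pearson correlation of log2(signal + 1), among genes with a mean signal of at least 10. For Mio these were sl, Dlic and CG9281, with correlations of 0.98, 0.97 and 0.97. The signal of CG9281 averaged 1350.4 in EcRi 0.5 M, 770.2 in control 0.5 M, 601 in EcRi 0.15 M and 589 in control 0.15 M libraries. For sug they were Osbp, CS-2 and wisp, at 0.98, 0.98 and 0.97. CS-2, a chitin synthase gene, averaged 1059 in EcRi 0.5 M, 234 in control 0.5 M, 573 in EcRi 0.15 M and 94.6 in control 0.15 M libraries. For cbt they were sec31, CG4705 and sec71, at 0.96, 0.95 and 0.95. For daw they were CG9577, ced-6 and CG4269, each at 0.98. CG4269 averaged 272 in EcRi 0.5 M, 960.1 in control 0.5 M, 26.4 in EcRi 0.15 M and 518 in control 0.15 M libraries. All these correlations rest on the same 4 groups of 3 libraries and are given without a test.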

How the data were processed

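RNA from female fat bodies was depleted of ribosomal RNA and sequenced on an Illumina HiSeq instrument, per the labels. The authors deposited a normalised signal per gene and library. Among the tools in the submitters' processing notes are edgeR, Cufflinks 1.1.0, Bowtie 0.12.7 and TopHat 1.3.2. What each was used for, the build and gene models, strandedness and the normalisation method are not given in the sources used here, and no coordinates are printed. The values were not whole, the lowest was 0.0933, and low values were not whole multiples of 1 step in most libraries, so the count model foreseen for counts was replaced by limma and the depth in reads is unknown.

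Values were transformed as log2(signal + 1), which understates changes of low genes. All 10047 genes had a mean of at least 1. limma 3.58.1 in R 4.3.3 fitted 4 groups of 3 libraries with a trended, robust empirical Bayes step, and Benjamini-Hochberg adjustment ran over all genes. The 5 comparisons were the genotype contrast within either diet, the diet contrast within either genotype, and the interaction. As a check of the code, the fit was run on simulated whole counts with 1 spread setting for all genes. The deposited values are not whole and their libraries differ in spread, so that run does not measure error rates here. Named genes were the 8 members, EcR, w and Dcr-2 as checks, up to 3 called genes of smallest p per list and comparison, and the 3 genes most like Mio, sug, cbt and daw; desat1 and the called cell type markers were named after their values were seen. Members and lists were chosen with earlier results of these data known. Symbols are those of the table, matched to lists through FlyBase identifiers where names had changed. Alternatives were other pseudocounts, filters, scalings, variance steps, library weights, a replicate block, fits of only the compared libraries and leaving out each of the 12 libraries.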

Additional observations from a re-analysis of the deposited data

Results flagged for a closer look

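The diet change of Mio differed between the genotype labels. The diet change in EcRi minus that in control was 1.26 on the log2 scale (limma, Benjamini-Hochberg adjusted p = 0.0122), and all 3 EcRi 0.5 M libraries lay above the other 9. The interaction median of the 11 muscle marker genes was 1.42, and 0 of them passed in limma. Like Mio, each muscle gene was highest in replicate 1 of EcRi 0.5 M, and in replicate 3 of EcRi 0.15 M. In control 0.5 M libraries Mio was lowest in replicate 3, and no muscle gene was. The part of muscle RNA in the results for Mio and Smox was not tested.

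The diet change of Smox also differed, by 1.37 (limma, Benjamini-Hochberg adjusted p = 0.00334). The 3 EcRi libraries on 0.5 M sucrose lay above the 3 on 0.15 M, while those of control overlapped. With each of the 12 libraries left out in turn the difference ran from 1.102 to 1.433 for Mio and from 1.26 to 1.45 for Smox, and no call changed.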

How the results depend on the processing

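Of 40 pairs of gene and comparison, 16 were called. Of these calls 12 held in every alternative and 4 were lost in at least 1. Of the 24 other pairs 5 were called in at least 1 alternative. The alternative without a filter was the same fit as the main one, since all 10047 genes had a mean of at least 1. It is counted among the 22 alternatives per comparison, and among the 21 for the interaction. The edgeR and DESeq2 alternatives were not run, since whole reads were not recovered by a single step per library. The estimation of library weights stopped before convergence. The causes were not tested.

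For the diet in control, the count of members called was 1, and 0 with upper quartile scaling, quantile normalisation, plain empirical Bayes, library weights, the replicate block and the fit of only the compared libraries. The count of all genes called there was 173, and 67 with plain empirical Bayes, 968 with library weights and 60 in the fit of only the compared libraries. Without control 0.5 M replicate 1 that count was 105. For the interaction the members called were 2, and 1 with plain empirical Bayes and 5 with library weights, and all genes called were 394, and 149, 1546 and 260 with plain empirical Bayes, library weights and the replicate block. On 0.5 M, 3628 genes were called between genotypes with library weights, against 1915. With library weights 64.7% of calls for the diet in control were higher, against 90.2%, and with upper quartile scaling 46.7% of genotype calls on 0.5 M, against 57.4%.

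Leaving out 1 library gave 2 to 4 members called between genotypes on 0.15 M, 4 to 5 on 0.5 M, 5 to 6 for the diet in EcRi, 0 to 1 in control and 2 to 3 for the interaction. All genes called ran from 824 to 1436, 1318 to 1954, 1355 to 2959, 74 to 359 and 141 to 532 in the same order.

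Signs turned only for differences that did not pass. The genotype difference on 0.15 M was 0.016 for cbt with upper quartile scaling and 0.0072 with quantile normalisation. Leaving out 1 library, it ran from -0.18 to 0.079 for cbt, -0.21 to 0.085 for put and -0.31 to 0.025 for Mio. For the diet in control, cbt was at -0.029 with library weights and Smox between -0.096 and 0.073 with 1 library left out. The interaction was -0.063 for bigmax and -0.078 for sug with upper quartile scaling, and -0.22 for sug with quantile normalisation. With 1 library left out it ran from -0.037 to 0.24 for bigmax and from -0.29 to 0.42 for sug.

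No pairing of libraries by replicate number was detected, which 3 libraries per group cannot exclude. Deviations from group means of same-numbered libraries correlated at -0.20 to 0.17, with 2 of 18 pairs over 0.1. Those of different-numbered libraries correlated at -0.17 to 0.21, with 7 of 36 pairs over 0.1. With the replicate block, 2 members were called between genotypes on 0.15 M and 5 on 0.5 M, 5 for the diet in EcRi, 0 in control and 2 for the interaction. Among members, it lost the calls of Smox on 0.15 M and of sug for the diet in control.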
